A study of Arabidopsis thaliana with 72 samples.

Results

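SG063 is a recombinant inbred line of Arabidopsis thaliana, the inbred progeny of a cross between the accessions Sorbo and Gy-0. Its expression level was compared, separately in shoots and in roots, with the equal-weight mean of 4 other lines measured in the same series. Of the 72 arrays of the series, 12 held SG063 (6 per organ) and 48 held the comparison lines (24 per organ), and the 12 arrays of the accession Fei-0 were not used. Arrays were assigned by the line named on their labels, and no measured value entered the choice. The comparison lines were the accession El-0, the recombinant inbred line KB006 (Kondara x Br-0) and the recombinant inbred lines NG064 and NG087, which both came from the cross Nok-3 x Ga-0. Plants of every line grew for 21 days in vertical dishes on agar with 1% sucrose, and the nitrate supply was low, at 0.4 mM, or sufficient, at 9 mM. The low-nitrate medium held potassium chloride where the other held potassium nitrate, so the nitrate supply and its accompanying ions cannot be told apart. Each line, organ and nitrate supply had 3 replicates, each a pool of 30 plants from 3 plates per the series' design text. The labels name no mutation or transgene, and SG063 is the single line of its cross, so line and cross cannot be told apart.

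Recombinant inbred lines carry fixed mosaics of their parents' genomes, and they can hold alleles, deletions and gene copies that other lines lack. Transcript levels that differ between such lines are the raw material for mapping natural variation in metabolism, defence and growth. The probes of these arrays carry the sequence of a reference accession, so a line can read low either because a transcript is scarce or because its sequence does not match the probes. Which of the 2 applies was not tested for any gene here.

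The deposited values are on the log2 scale, with a lowest value of 2.11, and 31.2% of all values lay within 0.5 of that floor. A level below is the log2 value of a probe set, and a difference is SG063 minus the mean of the 4 line means, also log2, with its standard error. A probe set was called where limma gave an adjusted p below 0.05 over all 22746 probe sets, and the words higher and lower are used for called probe sets. Probe sets whose line mean was 5 or more in each of the 5 lines are named well-expressed and are counted apart, since a difference that starts at the floor has no measured lower side. There were 12010 of them in shoots and 12121 in roots.

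The 12 SG063 arrays matched their labels. Each was closest to its own organ and nitrate supply among the groups, and to the other arrays of its own line. Their correlation with the other 2 replicates of their group ran from 0.9921 to 0.9939 in shoots and from 0.9955 to 0.9969 in roots. Over all 60 arrays the lowest such correlation was 0.9615, on 1 El-0 shoot array at sufficient nitrate. RCA, the activase of Rubisco and a marker of green tissue, read 14.2 to 14.47 in SG063 shoots and 7.545 to 10.1 in SG063 roots. EXPA7, an expansin of root hairs, read 7.44 to 8.43 in SG063 roots and 2.69 to 3.49 in SG063 shoots. Of the markers listed for the organ check, 6 of 8 for shoots, 4 of 8 for roots and 0 of 8 for flowers had a probe set of their own.

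In shoots, 2278 probe sets differed between SG063 and the mean of the other lines. SG063 was higher at 1162 of them (5.11%) and lower at 1116 (4.91%), and 571 differed 2-fold or more, 264 higher and 307 lower. Among the well-expressed probe sets 784 were higher (6.53%) and 799 lower (6.65%), of which 227 differed 2-fold or more. Of the 2-fold calls, 60.2% involved at least 1 line with a mean under 5, and in roots that share was 63.8%. Called differences had a median size of 0.60, and of 0.51 among the well-expressed. The largest differences narrowed with that condition, from between -7.09 and 7.89 over all probe sets to between -4.17 and 2.41. When every line was set in turn against the mean of the other 4 in the same arrays, the counts of calls ran from 1909 for NG087 to 4345 for El-0 in shoots, and SG063 lay within that range.

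A mean over 4 lines can hide which of them carry a difference, so SG063 was also set against each line. It was higher than each of the 4 at 156 probe sets (0.686%) and lower than each at 184 (0.809%). At 42 called probe sets (0.185%) all 6 SG063 shoot arrays lay above all 24 others, and at 52 (0.229%) all 6 lay below.

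Some genes were read at the floor in the other lines. AT4G29200, a protein-coding gene with no symbol, read 9.59 to 10.41 on the 6 SG063 shoot arrays (median 9.98) and 2.11 to 2.18 on the 24 others (median 2.11). The difference was 7.89 ± 0.05 (adjusted p = 3.24e-33), and no array of another line came near the SG063 range. AT5G41660 read 5.47 to 7.34 in SG063 shoots (median 6.63) and 2.11 to 2.26 elsewhere (median 2.11), a difference of 4.41 ± 0.15. AT2G10900, annotated as a pseudogene, read 5.30 to 6.14 in SG063 (median 5.88) and at most 2.20 elsewhere, a difference of 3.68 ± 0.07. These 3 genes, and 1 probe set not paired with a single gene, were the 4 that lay near the floor on all 24 other arrays and at 5 or more on all 6 of SG063. The reverse pattern, near the floor throughout SG063 and at 5 or more on all other arrays, was found at 0 probe sets, although limma called 1116 lower.

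Other genes were high in SG063 and faint, but not always at the floor, elsewhere. AT5G45500 read 9.83 to 10.71 (median 10.43) in SG063 shoots against 3.26 to 3.60 (median 3.45), a difference of 6.92 ± 0.07. AT5G39030 read 5.55 to 8.30 (median 7.31) against 2.11 to 3.05 (median 2.11), a difference of 5.01 ± 0.23. ZW9 (AT1G58270) read 8.64 to 10.14 (median 9.53) against 2.22 to 7.29 (median 4.82), a difference of 4.78 ± 0.46. The SG063 arrays of each of these genes lay above every other array, and ZW9 varied most among the other lines.

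Other genes were lower in SG063 shoots than on every other array. AT1G23130 read 2.82 to 6.65 in SG063 shoots (median 4.21) and 9.27 to 13.50 elsewhere (median 11.59), a difference of -7.09 ± 0.41 (adjusted p = 1.27e-12). Its neighbour on the chromosome, AT1G23120, was also below all other arrays, with a difference of -2.96. AT1G76450 read 2.11 to 7.52 (median 4.58) against 8.71 to 11.61 (median 10.37), a difference of -5.91 ± 0.31. AT5G36290 read 2.74 to 5.20 (median 3.63) against 8.75 to 10.18 (median 9.68), a difference of -5.89 ± 0.19. AT3G51000 read 2.60 to 4.61 (median 4.22) against 8.24 to 10.15 (median 9.72), a difference of -5.64 ± 0.22. In these 4 genes the highest SG063 array stayed below the lowest array of any other line, and all 4 comparison lines sat close together except at AT1G23130, where line means ran from 10.43 in NG087 to 12.90 in El-0. AT5G23330 (-3.82 ± 0.09), AT1G49350 (-3.49 ± 0.17), AT4G01460 (-3.33 ± 0.26) and AT1G60690 (-3.32 ± 0.18) also lay below all other arrays.

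Well-expressed genes were then picked from the called probe sets without overlap (43 well-expressed in shoots), and their differences were smaller. AT3G43510, annotated as a pseudogene, read 7.19 to 8.97 in SG063 shoots (median 7.98) and 5.65 to 7.01 elsewhere (median 6.27), a difference of 1.74 ± 0.14. AT3G43610 differed by 1.52 ± 0.15, AT1G59960 by 1.16 ± 0.17, AT3G11930 by 1.11 ± 0.16 and AT1G21790 by 0.94 ± 0.10. AT4G16710 read 5.71 to 7.17 (median 6.50) against 7.50 to 9.05 (median 8.62), a difference of -2.14 ± 0.15. AT3G24070 differed by -2.01 ± 0.12, AT3G26380 by -1.93 ± 0.08, AT3G26070 by -1.83 ± 0.07 and AT5G02740 by -1.38 ± 0.09. That the 6 SG063 arrays and the 24 others did not overlap was the rule by which these 10 genes were picked.

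Genes with a symbol were picked after their values were seen. Among them, NMNAT, AAE16, CHR23 and BETA-VPE were higher in SG063 shoots than in each other line. NMNAT (AT5G55810), an adenylyltransferase of NAD synthesis, read 5.55 to 6.79 in SG063 (median 6.51) against 3.74 to 5.42 (median 4.84), a difference of 1.61 ± 0.14. Its SG063 arrays did not overlap the others. AAE16 (AT3G23790), an acyl-activating enzyme, differed by 1.66 ± 0.21, and CHR23 (AT5G19310), a chromatin-remodelling ATPase, by 1.18 ± 0.13, each with some overlap. BETA-VPE (AT1G62710), a vacuolar processing protease, read 6.35 to 9.57 in SG063 (median 8.09) and 2.69 to 9.33 elsewhere (median 5.66), a difference of 2.41 ± 0.35. In roots BETA-VPE differed by -0.05 ± 0.12 (adjusted p = 0.893), and the difference between the organs was called (2.47 ± 0.37, adjusted p = 2.94e-06).

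Among genes with a symbol that were lower than each other line in shoots, 7 are described here. UGT85A4 (AT1G78270), a glycosyltransferase, read 6.42 to 6.69 in SG063 (median 6.55) and 6.30 to 9.99 elsewhere (median 9.17), a difference of -2.49 ± 0.28. RALFL31 (AT4G13950), a secreted RALF-like peptide, differed by -1.01 ± 0.13, and BPEp (AT1G59640), a transcription factor that limits petal size, by -0.93 ± 0.16. GRXC1 (AT5G63030), a glutaredoxin, differed by -0.85 ± 0.14. MOL1 (AT5G51350), a receptor-like kinase that restrains the cambium, differed by -0.75 ± 0.12. NRPB6B (AT2G04630), a subunit of RNA polymerases, differed by -0.69 ± 0.11, and CYP71 (AT3G44600), a nuclear cyclophilin, by -0.60 ± 0.08. UGT85A4 had a narrow range in SG063 and a wide one elsewhere, and in all 7 genes the 2 sets of arrays overlapped.

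In roots, 5211 probe sets differed. SG063 was higher at 2815 (12.4%) and lower at 2396 (10.5%), and 737 differed 2-fold or more, 355 higher and 382 lower. Among the well-expressed 2172 were higher (17.9%) and 1754 lower (14.5%), of which 267 differed 2-fold or more. Called differences had a median size of 0.43, or 0.37 among the well-expressed, so the larger count in roots came with smaller differences. SG063 was higher than each line at 435 probe sets (1.91%) and lower than each at 395 (1.74%). All 6 SG063 root arrays lay above all 24 others at 97 called probe sets (0.426%) and below them at 93 (0.409%). Set in turn against the mean of the other 4 in roots, the lines had from 4375 calls for NG087 to 6015 for KB006, and SG063 again lay within the range.

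AT4G29200 read 9.65 to 10.39 in SG063 roots (median 9.98) and 2.11 on every other array, a difference of 7.87 ± 0.05. AT5G45500 differed by 7.18 ± 0.10 and AT5G41660 by 6.15 ± 0.06. AT5G23830 read 9.54 to 10.21 in SG063 roots (median 9.96) and 2.11 to 4.12 elsewhere (median 2.11), a difference of 7.68 ± 0.20. Its shoot difference was 0.79 ± 0.23, and the organs differed by -6.88 ± 0.31 (adjusted p = 8.32e-24). AT1G55430 read 5.51 to 6.30 in SG063 roots (median 6.07) against 2.11 to 5.20 (median 2.25), a difference of 3.13 ± 0.12, and its neighbour AT1G55440 differed by 2.51 ± 0.10. Both neighbours lay at the floor on all 30 shoot arrays.

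Among well-expressed root genes ZW9 read 11.22 to 11.97 in SG063 (median 11.43) and 8.17 to 9.90 elsewhere (median 9.15), a difference of 2.41 ± 0.15. AT4G25090 differed by 2.34 ± 0.15, AT4G16770 by 2.02 ± 0.09, AT3G11930 by 1.83 ± 0.14, AT5G42690 by 1.60 ± 0.16 and AT2G21045 by 1.56 ± 0.12. These 6 were likewise picked from the probe sets without overlap. AT4G25090 was nonetheless not distinct from KB006, whose mean was 8.61 against 9.10 in SG063.

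Lower in SG063 roots were 2 detoxification genes, an oxidative stress enzyme and genes without a symbol. CYP71B37 (AT3G26330), a cytochrome P450, read 4.14 to 6.98 (median 5.19) in SG063 and 8.62 to 10.24 elsewhere (median 9.31), a difference of -3.89 ± 0.26 (adjusted p = 1.74e-11). GSTU28 (AT1G53680), a glutathione transferase of the tau class, read 4.79 to 6.56 (median 5.31) against 6.87 to 9.48 (median 8.48), a difference of -2.73 ± 0.23. SRX (AT1G31170), the sulfiredoxin that reactivates peroxiredoxins, read 7.43 to 7.79 (median 7.64) against 8.33 to 9.80 (median 9.36), a difference of -1.60 ± 0.08. No SG063 array of these 3 genes reached the range of the others, and in shoots SRX differed by -0.30 ± 0.12 (adjusted p = 0.119) and GSTU28 by -0.28 ± 0.17 (adjusted p = 0.396). AT5G47950 differed by -3.39 ± 0.23, AT3G26070 by -2.60 ± 0.14 and AT1G23780 by -2.06 ± 0.13, each without overlap. AT5G47940, beside AT5G47950, went the other way, with a difference of 1.43 and all 6 SG063 arrays above the others. AT1G66440 (-1.76) and its neighbour AT1G66450 (-2.08) lay below all others together.

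Genes with a symbol that were lower than each line in roots included 2 of primary metabolism. APL3 (AT4G39210), a large subunit of the enzyme that makes ADP-glucose for starch, read 2.11 to 3.45 in SG063 (median 3.09) and 2.74 to 6.19 elsewhere (median 4.36), a difference of -1.32 ± 0.19. It was also lower in shoots (-1.44 ± 0.33, adjusted p = 0.00392), where El-0 (8.38) and KB006 (7.71) were far above SG063 (5.55) and NG064 (5.67) was close to it. IVD (AT3G45300), the isovaleryl-CoA dehydrogenase of leucine breakdown, differed by -1.44 ± 0.18, and HLL (AT1G17560), a mitochondrial ribosomal protein, by -1.65 ± 0.19. UGT84A3 (AT4G15490), a glycosyltransferase, read 3.63 to 4.03 (median 3.66) against 3.69 to 7.69 (median 5.95), a difference of -2.23 ± 0.18. PDF2.1 (AT2G02120), a plant defensin, differed by -2.46 ± 0.50. Each of these 5 genes overlapped the other arrays.

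Higher than each line in roots were ATPMEPCRD (AT2G43050), a pectin methylesterase, at 5.51 to 6.98 (median 6.16) against 2.65 to 5.99 (median 3.80), and MSRB5 (AT4G04830), which repairs oxidised methionine, with a difference of 1.51 ± 0.22. WES1 (AT4G27260), an enzyme that conjugates auxin to amino acids, read 7.59 to 8.02 in SG063 roots (median 7.81) and 6.27 to 7.43 elsewhere (median 6.89), a difference of 0.90 ± 0.11. WES1 did not overlap in roots, while in shoots it ranged from 6.72 to 10.12 in SG063 and differed by 0.02 ± 0.52 (adjusted p = 1). NMNAT (1.50 ± 0.13) was higher without overlap, as in shoots. WRKY42 (AT4G04450), a transcription factor, reached 2.12 to 4.60 (median 3.54) in SG063 roots and at most 2.60 elsewhere, a difference of 1.23 ± 0.18, and lay at the floor in all shoots. In roots 3 probe sets were near the floor on all other arrays and at 5 or more on all SG063 arrays, 2 of them in both organs, and the reverse held for 0 although limma called 2396 lower.

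**Figure D1:**
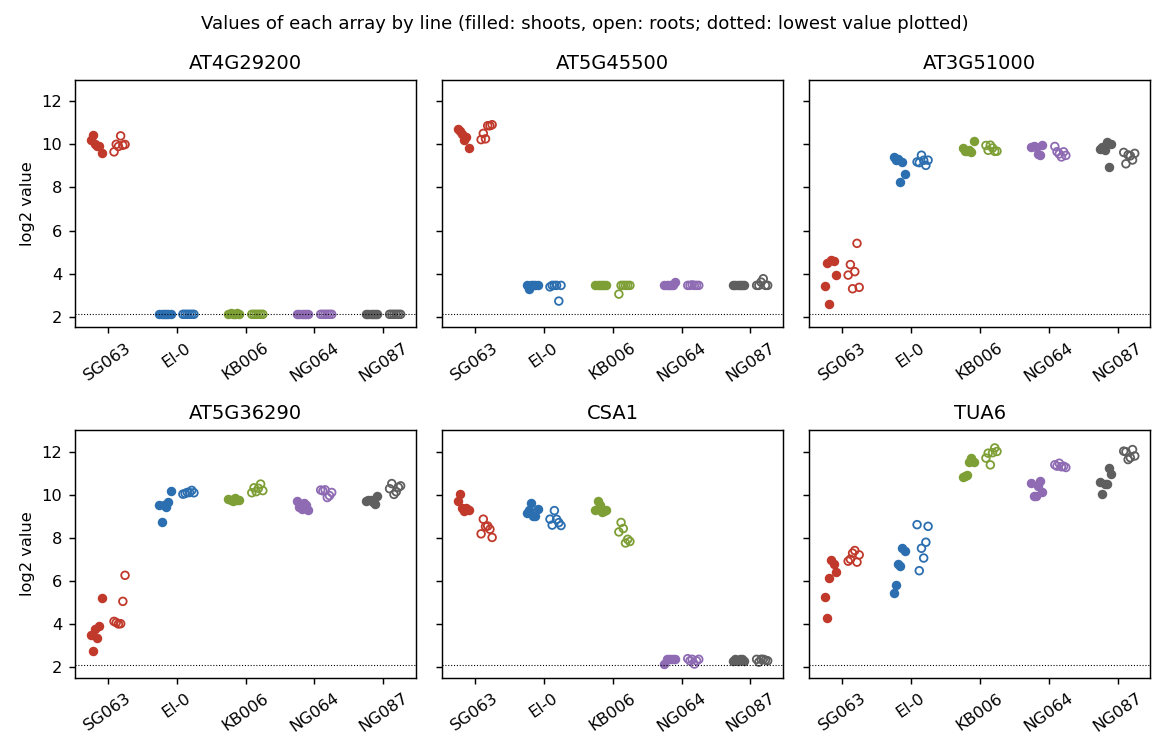
Each point is the log2 value of 1 array, grouped by line, for 6 genes, with filled points for shoots and open points for roots. SG063 stood alone at AT4G29200, AT5G45500, AT3G51000 and AT5G36290, whereas CSA1 was as high in El-0 and KB006 as in SG063 and TUA6 was as low in El-0.

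A difference from the mean did not always set SG063 apart from each line. Of the 2278 shoot calls, 340 (14.9%) differed from all 4 lines with 1 sign, 619 from 3, 841 from 2 and 438 from 1. In roots the shares were alike, with 830 (15.9%) distinct from all 4. Among 2-fold calls the share distinct from all 4 was 29.4% in shoots and 40.4% in roots. Where a 2-fold call was distinct from all lines but 1, that line was most often KB006 (97 shoot and 99 root probe sets) or El-0 (68 and 86), and less often by count NG064 (18 and 23) or NG087 (11 and 22). NG064 and NG087 share a cross, so a level that is common to both counts on 2 of the 4 lines.

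**Figure D2:**
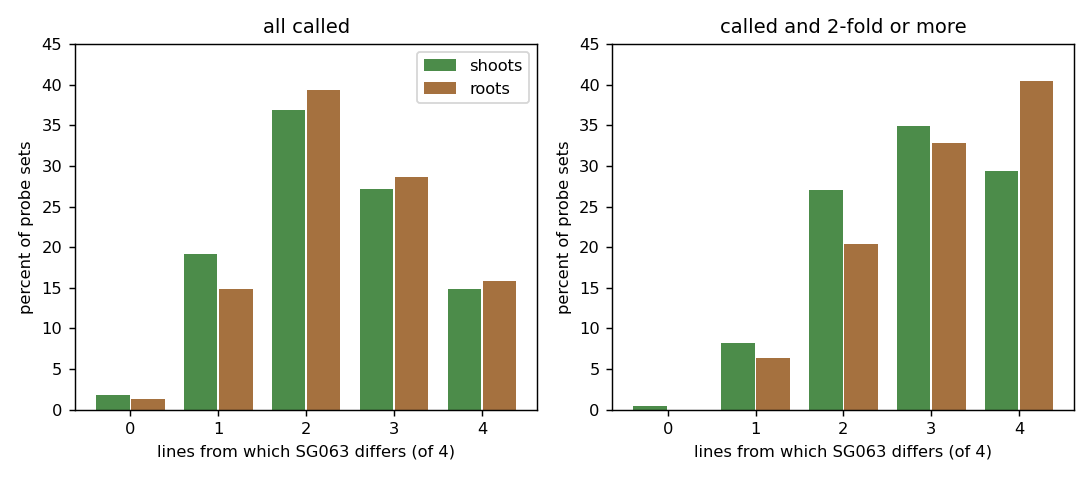
Bars give the percent of called probe sets by the number of comparison lines from which SG063 differed, for all calls (left) and for calls of 2-fold or more (right). The share that differed from all 4 lines was 14.9% in shoots and 15.9% in roots for all calls, and 29.4% and 40.4% for 2-fold calls.

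CSA1 (AT5G17880), an immune receptor of the NLR family, shows a shared high level. Its mean was 9.50 in SG063 shoots, 9.25 in El-0 and 9.38 in KB006, against 2.32 in both NG064 and NG087, so the difference of 3.68 ± 0.08 rested on the Nok-3 x Ga-0 lines. In roots the means were 8.81 in El-0, 8.42 in SG063 and 8.16 in KB006, against 2.30 in NG064 and 2.32 in NG087. AT3G44430 was high in SG063 (8.00) and El-0 (8.37) and at the floor in the other 3 lines in shoots. AT1G58025 was at the floor in SG063, El-0 and KB006 and at 10.60 in both NG lines. AT3G44070 was low in SG063 (3.35) and KB006 (3.50) and above 8.9 in the other 3 lines. TUA6 (AT4G14960), an alpha-tubulin, read 5.96 in SG063 and 6.60 in El-0 against 10.26 to 11.23 in the other lines, and its shoot difference of -3.72 ± 0.22 therefore left SG063 level with El-0. Alpha-tubulins are near-identical in sequence, and cross-hybridisation at this probe set was not tested.

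Between the organs, 1346 probe sets were called in both. The sign was shared at 1287 of them, 656 higher and 631 lower, which is 56.5% of the shoot calls and 24.7% of the root calls. SG063 was distinct from each line in both organs at 165 probe sets, and at 47 its arrays lay outside all others in both, 23 above and 24 below. The difference itself depended on the organ at 1470 probe sets (6.46%), and 613 of these were well-expressed in both organs. At 259 of the 1470 both the SG063 mean and the mean of the other lines were near the floor in shoots, and at 175 in roots.

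**Figure D3:**
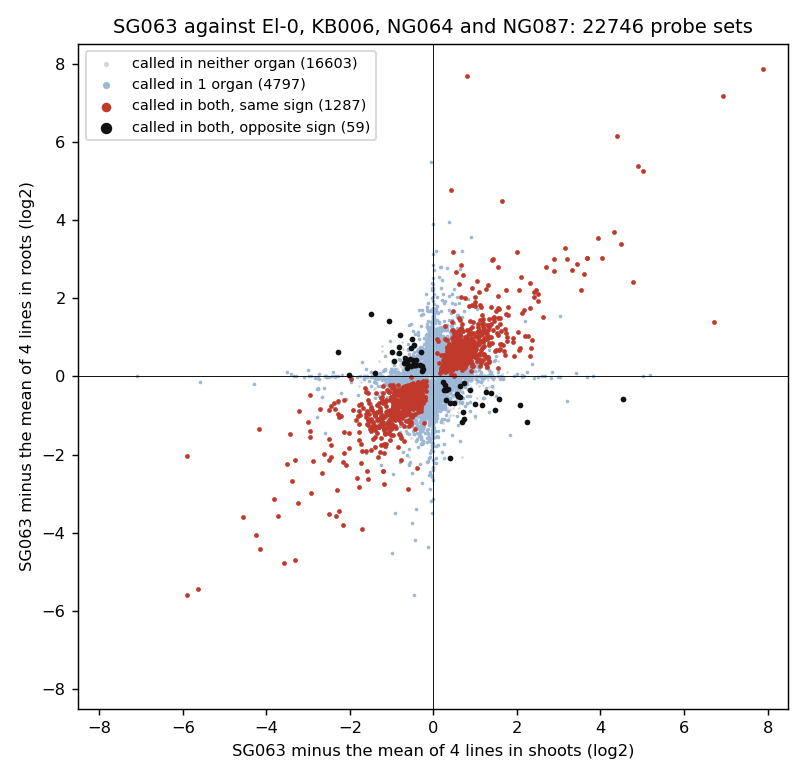
Each of the 22746 points is a probe set, with the SG063 minus 4-line mean difference in shoots on the x axis and in roots on the y axis (both log2). The 1287 probe sets called in both organs with 1 sign (red) follow the diagonal, and 59 were called with opposite signs (black).

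Opposite signs in the organs were called at 59 probe sets. The difference between organs was called at all 59, which the choice by opposite calls nearly fixed in advance. CYP71B34 (AT3G26300), a cytochrome P450, was lower in SG063 shoots (-0.52 ± 0.11) and higher in SG063 roots (0.97 ± 0.16). It read 7.39 to 8.67 in SG063 shoots (median 7.94) against 8.00 to 8.93 (median 8.54), and 5.33 to 8.12 in SG063 roots (median 6.84) against 4.14 to 7.94 (median 5.82), so the arrays overlapped in both organs. GSTU27 (AT3G43800) was likewise lower in shoots (-0.48 ± 0.15) and higher in roots (0.41 ± 0.07). PGRL1B (AT4G11960), a protein of cyclic electron flow, was higher in shoots (0.40 ± 0.11) and lower in roots (-0.68 ± 0.13), and UGT88A1 (AT3G16520) went the same way (0.57 ± 0.10 and -0.44 ± 0.14). The organ difference, which does not rest on a call in each organ, was 1.08 ± 0.17 at PGRL1B and 1.01 ± 0.18 at UGT88A1. Both genes were picked for their opposite calls. The shoot call of PGRL1B was lost without NG064 (adjusted p = 0.111) or NG087 (0.66), that of UGT88A1 without NG064 (0.0863), its root call without El-0 (0.153) or NG087 (0.137), and the shoot call of GSTU27 without NG064 (0.165) or NG087 (0.0914). QQS (AT3G30720), an orphan gene linked to starch content, varied most between lines: in shoots its mean was 6.79 in SG063, 11.71 in El-0, 4.33 in KB006, 2.77 in NG064 and 2.48 in NG087. In roots the means were 3.81 in SG063, 11.77 in El-0 and 2.21 to 2.46 in the other 3 lines. Its called root difference of -0.86 ± 0.23 therefore rested on El-0: without that line it was 1.51 (adjusted p = 0.000198). The shoot call of QQS was lost without NG064 (adjusted p = 0.36) or NG087 (0.464). By line means SG063 was above 3 lines and below 1 in both organs.

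Gene lists were read against the shares of all probe sets called, given above, and against a median difference of 0 over all probe sets in each organ. Those shares include probe sets near the floor, and the shares among well-expressed probe sets, also given above, were larger. Where a listed gene had several probe sets, the probe set with the highest mean level in the organ was used. ER bodies are compartments of the endoplasmic reticulum, typical of Brassicaceae, that store the beta-glucosidase PYK10, and its complex with jacalin-related lectins forms when cells are damaged. In SG063 shoots 4 of 7 members were lower and 0 higher, with a list median of -0.71. Of the 7, 5 were well-expressed in shoots, and 3 of these were called. NAI1 (AT2G22770), the transcription factor needed for ER bodies, read 4.08 to 5.49 (median 4.77) against 4.86 to 6.85 (median 5.97), a difference of -1.16 ± 0.24. NAI2 (AT3G15950), the protein that shapes the bodies, read 7.04 to 7.95 (median 7.53) against 7.54 to 9.35 (median 8.56), a difference of -1.01 ± 0.16, and it was lower than each of the 4 lines. PYK10 (AT3G09260) read 9.38 to 11.17 (median 10.91) against 10.64 to 12.27 (median 11.47), a difference of -0.86 ± 0.19, and the lectin JAL22 differed by -0.71. In all 3 genes the highest SG063 arrays overlapped the lowest of the others. PYK10 is also a root marker, and the 3 other root markers read in SG063 shoots within the range of the other lines, with EXPA7 at 2.69 to 3.49 AT5G17820 at 2.11 to 5.89 and GSTU25 at 3.13 to 6.52; the part of the organs' makeup in this result was not tested. In these organ samples fewer cells of a type and less RNA per cell cannot be told apart.

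In roots the same list had 0 lower and 2 higher members, with a median of 0.11. NAI1 differed by 0.17 ± 0.14 (adjusted p = 0.489), NAI2 by 0.09 ± 0.07 (0.474) and PYK10, which read 13.40 to 14.32 in SG063 and 13.38 to 14.35 elsewhere, by 0.11 ± 0.07 (0.358). The lectins JAL34 (AT3G16460), at 0.38 ± 0.06, and JAL33 (AT3G16450), at 0.75 ± 0.23, were higher, and the call of JAL33 was lost without NG087 (adjusted p = 0.122). The difference between the organs was called at NAI1 (-1.33 ± 0.28), NAI2 (-1.11 ± 0.18), PYK10 (-0.96 ± 0.20) and JAL33 (-1.22 ± 0.29).

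Of 5 genes of flavonoid and anthocyanin synthesis, a pathway to the red and purple pigments of stressed leaves, 2 were lower in SG063 shoots and 0 higher, with a median of -1.40. DFR (AT5G42800), dihydroflavonol reductase, read 2.11 on all 6 SG063 shoot arrays and 2.11 to 10.99 elsewhere (median 4.00), with line means of 6.76 in El-0, 5.64 in KB006, 3.94 in NG087 and 3.27 in NG064. The difference at DFR was -2.79 ± 0.81 (adjusted p = 0.0259), and AT4G14090 differed by -2.21 ± 0.65. SG063 overlapped the lowest arrays of the others at DFR, and the 2 calls were lost without KB006 (adjusted p = 0.0608 and 0.0522). Each of the 2 calls was also lost on leaving out any 1 of the 3 SG063 shoot arrays at low nitrate. The other 3 members, UF3GT, UGT78D2 and AT5MAT, had differences of -1.40, -0.72 and -0.56 and were not called. In roots 0 of 5 were called.

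Genes of the plastid genome encode part of the photosystems, the NDH complex and the plastid's own ribosome and polymerase. Of 69 such probe sets, 6 were higher and 3 lower in SG063 shoots (median 0.11), and 5 were higher and 19 lower in SG063 roots (median -0.29). In roots 40 of the 69 were well-expressed, and 18 of these were called. rps4, a plastid ribosomal protein gene, read 8.26 to 10.20 in SG063 roots (median 9.11) and 10.88 to 12.27 elsewhere (median 11.42), a difference of -2.43 ± 0.12 without overlap. In shoots it read 11.95 to 13.44 (median 12.75) against 13.26 to 14.25 (median 13.87), a difference of -1.20 ± 0.09, and it was lower than each line in both organs. psbA, the D1 protein of photosystem II, differed by -2.26 ± 0.37 in roots, with means of 5.08 in SG063, 5.65 in NG087 and 8.86 in KB006. clpP (-1.17 ± 0.15) and rpoC2 (-1.48 ± 0.29) were lower in roots, and in shoots clpP differed by -0.53 ± 0.07.

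Other plastid genes went the other way in the same arrays. psbM, a small subunit of photosystem II, read 9.60 to 11.20 in SG063 roots (median 10.61) and 5.48 to 10.19 elsewhere (median 7.23), a difference of 3.01 ± 0.19, and differed by 1.43 ± 0.17 in shoots. ycf3 was higher by 1.42 ± 0.27 in roots and 1.45 ± 0.23 in shoots. ndhA (1.18 ± 0.19 in roots, 0.62 ± 0.10 in shoots) and ndhI (0.92 ± 0.13 and 0.31 ± 0.07), both of the NDH complex, were higher in both organs. The plastid probe sets thus held calls of both signs in each organ, with 19 of 24 root calls lower.

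Nuclear genes of photosynthesis had 1 higher and 0 lower of 10 in shoots (median -0.01) and 0 higher and 3 lower in roots (median -0.46). In roots 7 of the 10 were well-expressed, and 1 of these was called. LHCB4.2 (AT3G08940), an antenna protein, was higher in shoots by 0.54 ± 0.08. LHCB4.3 (AT2G40100) was lower in roots with a difference of -1.47 ± 0.23, with 3.38 to 5.14 in SG063 (median 4.36) against 3.79 to 7.34 (median 5.69). PSBW was lower in roots, at 4.12 to 8.53 (median 7.18) against 4.03 to 10.12 (median 8.09), and SBPASE differed by -0.81 ± 0.26. Both calls were lost without El-0 (adjusted p = 0.105 and 0.156). The medians of all 6 green-tissue markers in SG063 roots lay below those of the other roots, from 8.63 against 9.29 at RCA to 3.50 against 4.76 at SBPASE. A position of medians is not a call, and these medians pool both nitrate supplies. LHCB4.2 read 4.41 to 4.91 at low and 8.18 to 9.11 at sufficient nitrate in SG063 roots. Its difference of line means went the other way, at 0.38 ± 0.33 (adjusted p = 0.508). The part of green tissue in the plastid and photosynthesis counts of roots was not tested. The lowest of the other root arrays lay below the lowest of SG063 at 5 of these 6 markers, and at PRK both were 2.12. The highest of the other root arrays lay above the highest of SG063 at all 6, as at SBPASE with 7.89 against 5.03. These ranges rest on 24 other arrays and 6 of SG063, so their ends do not compare like with like.

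Of 11 genes of the mitochondrial genome, 3 were lower in SG063 shoots (median -0.32) and 7 in SG063 roots (median -0.78), with 0 higher in either. These genes had 18 probe sets, of which the probe set with the highest mean level in the organ stood for each gene. The rest were not counted. In each organ 3 of the 11 were well-expressed, and of these 0 were called in shoots and 2 in roots. nad4, a subunit of respiratory complex I, had means of 7.77 in SG063 roots, 7.56 in El-0, 7.99 in NG087, 9.53 in KB006 and 9.68 in NG064. Its difference was -0.92 ± 0.22, and SG063 was level with El-0 and NG087. nad5 (-0.85 ± 0.25) and nad4L (-0.86 ± 0.29) were lower in roots too, at low levels of 2.56 to 3.79 and 2.11 to 3.21 in SG063. In either organ 0 of the 11 was distinct from all 4 lines. The root calls of nad4 and nad9 were lost without KB006 or without NG064, and that of cox2 without NG064 or NG087 (adjusted p from 0.0608 to 0.106).

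**Figure D4:**
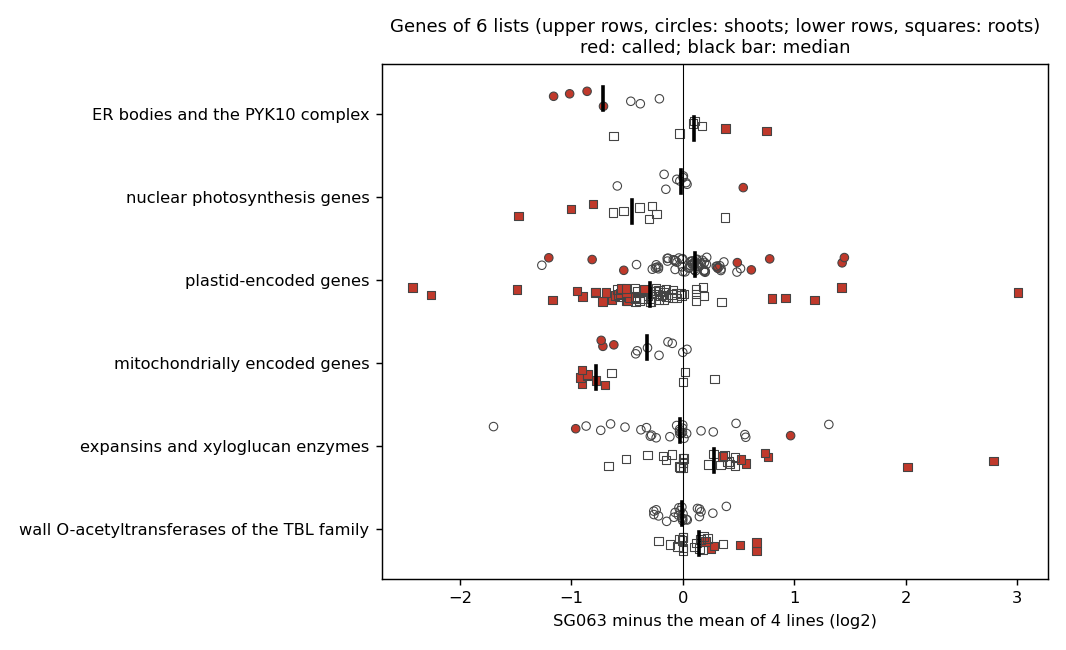
Each point is a gene of 1 of 6 lists, placed by its SG063 minus 4-line mean difference (log2), with circles for shoots and squares for roots. Red marks called genes, and black bars mark list medians, which were -0.71 in shoots and 0.11 in roots for ER bodies and -0.03 and 0.28 for expansins and xyloglucan enzymes.

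Expansins loosen walls without cutting them, and xyloglucan endotransglucosylases (XTH) cut and rejoin a main hemicellulose. Of 29 such genes, 7 were higher and 0 lower in SG063 roots (median 0.28), beside 12.4% higher and 10.5% lower over all probe sets, against 1 higher and 1 lower in shoots (median -0.03). In roots 17 of the 29 were well-expressed and 5 of these were called. Among all well-expressed root probe sets 17.9% were higher and 14.5% lower. EXPA8 (AT2G40610) read 7.00 to 8.10 in SG063 roots (median 7.65) and 3.38 to 7.27 elsewhere (median 4.48), a difference of 2.79 ± 0.27, and it was higher than each line. In shoots EXPA8 read 10.40 to 11.92 against 8.27 to 12.12, a difference of 0.16 ± 0.29 (adjusted p = 0.89), and the organs differed (-2.63 ± 0.40, adjusted p = 4.66e-06). EXLA1 (AT3G45970), an expansin-like protein, read 7.79 to 8.69 in SG063 roots (median 8.10) against 4.38 to 8.49 (median 6.09), a difference of 2.02 ± 0.22, with KB006 closest at a mean of 7.53. XTH18 (0.76 ± 0.20), XTH33 (0.74 ± 0.23), EXPA20 (0.57), EXPB1 (0.52) and XTH19 (0.36) were also higher, and the call of XTH18 was lost without El-0 (adjusted p = 0.0663).

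The TBL family adds acetyl groups to wall polysaccharides. Of 23 members 6 were higher and 0 lower in SG063 roots (median 0.15), and 0 were called in shoots (median -0.01). TBL40 (AT2G31110) read 8.08 to 8.89 in SG063 roots (median 8.51) and 6.95 to 8.54 elsewhere (median 7.83), a difference of 0.66 ± 0.09, and was higher than each line. TBL34 (AT2G38320) differed by 0.66 ± 0.19, TBL26 by 0.51 ± 0.09 at a low mean of 2.83, TBL25 by 0.28 ± 0.08, TBL18 by 0.25 and TBL35 by 0.20. The background in roots is 12.4% of all probe sets higher and 10.5% lower. Of the members, 17 were well-expressed in roots and 5 of these were called. Among all well-expressed root probe sets 17.9% were higher and 14.5% lower.

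Families that attach sugars or oxygen to small molecules differed gene by gene. The counts below stand beside 5.11% higher and 4.91% lower over all probe sets in shoots, and 12.4% and 10.5% in roots. Of 51 UGT glycosyltransferases, 4 were higher and 1 lower in shoots, and 10 higher and 4 lower in roots, with a median of 0 in both organs. UGT73B4 (AT2G15490) had means of 4.89 in SG063 roots and in El-0 against 7.70 to 8.13 in the other 3 lines, so its difference of -2.24 ± 0.27 was shared with El-0. Of 24 cytochrome P450 genes, 0 were higher and 7 lower in shoots (median -0.01), and 2 higher and 4 lower in roots (median 0). CYP71B24 (AT3G26230) had shoot means of 3.88 in SG063 and 3.10 in El-0 against 7.25 to 7.74 in the other lines, a difference of -2.51 ± 0.28 that El-0 shared. CYP71B6 (AT2G24180) was lower in both organs (-0.40 ± 0.11 in shoots, -0.79 ± 0.11 in roots), as was CYP71B26 (AT3G26290; -0.59 ± 0.13 and -0.93 ± 0.22). Of 13 glutathione transferases, 0 were higher and 1 lower in shoots (median -0.17), and 5 higher and 3 lower in roots (median 0.18). GSTL3 (AT5G02790) was lower in roots (-0.92 ± 0.13), where GSTU28 was too.

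RALF-like and CLE genes encode small secreted peptides. Of 17 of them, 4 were lower and 0 higher in shoots (median -0.19), beside 4.91% lower over all probe sets. In roots 5 were lower and 1 higher (median -0.27), beside 10.5% lower. In each organ 8 of the 17 were well-expressed, and 3 of these were called in shoots and 4 in roots. Among all well-expressed probe sets 6.53% were higher and 6.65% lower in shoots, and 17.9% and 14.5% in roots. RALFL27 (AT3G29780) read 6.69 to 7.89 in SG063 roots (median 7.00) and 7.05 to 9.30 elsewhere (median 8.47), a difference of -1.29 ± 0.20, and was lower than each line. CLE44 (AT4G13195), a precursor of the peptide that maintains the vascular cambium, was lower in roots (-1.14 ± 0.20) and in shoots (-0.67 ± 0.20). RALFL31 was lower in both (-1.01 ± 0.13 in shoots, -0.57 ± 0.12 in roots). The higher gene, RALFL22 in roots (0.26 ± 0.09, adjusted p = 0.0449), lost its call in 17 of the 30 fits that left out 1 array.

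Among 22 beta-glucosidases, 1 was higher and 3 lower in shoots, and 2 higher and 3 lower in roots, with medians that round to 0. The shares over all probe sets were 5.11% higher and 4.91% lower in shoots, and 12.4% and 10.5% in roots. BGLU42 (AT5G36890) read 4.79 to 7.34 in SG063 roots (median 6.49) and 7.34 to 10.11 elsewhere (median 7.82), a difference of -1.72 ± 0.28. BGLU46 (AT1G61820), which is active on lignin precursors, was lower in both organs (-1.50 ± 0.27 in shoots and -0.84 ± 0.12 in roots). BGLU43 (AT3G18070) was higher by 2.79 ± 0.16 in roots and 1.54 ± 0.26 in shoots, with KB006 at or above it in roots (6.51 against 6.31). THI2.2 (AT5G36910), a thionin, had shoot means of 6.03 in SG063, 6.95 in NG064, 7.03 in NG087, 10.03 in KB006 and 10.51 in El-0, a difference of -2.60 ± 0.39. GLR2.7 (AT2G29120), a glutamate receptor-like channel, was lower in shoots with a difference of -2.55 ± 0.40, at a mean of 2.39 beside 2.12 in KB006 and 5.36 to 6.63 in the others.

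Of 11 NPF transporters of nitrate and peptides, 0 were called in shoots and 1 was higher in roots. That gene, NPF6.4 (AT3G21670), had root means of 6.91 in SG063, 7.66 in El-0, 5.82 in KB006, 4.14 in NG064 and 3.39 in NG087, a difference of 1.65 ± 0.29 with El-0 above SG063. Of 16 sugar transporters, 2 were higher and 2 lower in shoots, and 0 higher and 2 lower in roots. Both lists stand beside 5.11% higher and 4.91% lower over all probe sets in shoots, and 12.4% and 10.5% in roots. SWEET10 (AT5G50790) was higher in shoots by 1.99 ± 0.53, at 4.31 to 6.26 (median 5.56) against 2.14 to 5.60 (median 3.35). SWEET11 (AT3G48740), a phloem-loading sucrose exporter, was lower in shoots with a difference of -0.71 ± 0.17, at 10.11 to 11.48 (median 10.76) against 10.60 to 12.00 (median 11.65).

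Nitrate supply entered the comparison as an additive term, and whether SG063 responded to it unlike the other lines was tested apart. A response is low minus sufficient nitrate, and its difference is the SG063 response minus the mean response of the 4 lines. It was called at 64 probe sets in shoots (0.281%) and at 134 in roots (0.589%), and 8 and 39 of these were well-expressed. The response of SG063 itself was called at 47 of the 64 and 108 of the 134, and the mean response of the other lines at 34 and 80. SG063 lay near the floor throughout at 10 of the 64 and 11 of the 134. The difference holds both responses, so these counts follow in part from how the probe sets were chosen. With each supply tested from the model of line by nitrate, SG063 differed from the other lines at 1440 shoot probe sets at low nitrate and 1137 at sufficient, and at 647 at both, with 0 opposite in sign. In roots the counts were 3212, 4116 and 1882, and 18 had opposite signs.

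**Figure D5:**
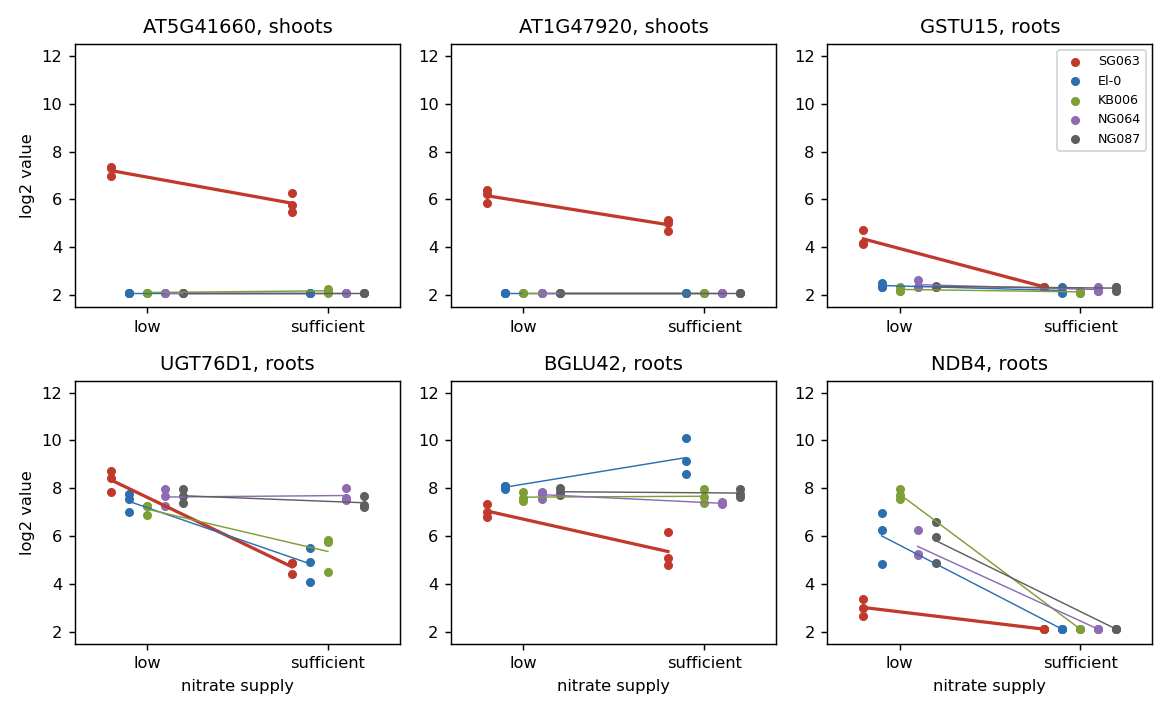
Points are single arrays and lines join group means of 3 replicates, at low and sufficient nitrate, for each of 5 lines (log2 value). AT5G41660 and AT1G47920 in shoots and GSTU15 in roots had response differences of 1.38, 1.21 and 1.86, with the other lines at or near the floor in that organ, and NDB4 in roots averaged 6.29 at low nitrate over the other lines against 3.02 in SG063.

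In shoots AT5G41660 averaged 7.21 ± 0.20 at low and 5.84 ± 0.41 at sufficient nitrate in SG063 (SD, n = 3 each), while the other lines stayed at the floor, a response difference of 1.38 ± 0.13. AT1G47920 averaged 6.15 ± 0.29 and 4.95 ± 0.22 (SD, n = 3 each), also with the others at the floor, a response difference of 1.21 ± 0.10. Both were higher in SG063 at each supply. CuAO1 (AT1G62810), a copper amine oxidase, rose at low nitrate in SG063, from 6.65 to 7.63, and fell in the mean of the others, from 7.91 to 7.34, a response difference of 1.55 ± 0.20 (adjusted p = 0.000163). BPEp rose by 1.66 in the others (4.26 to 5.93) and changed by 0.42 in SG063 (adjusted p = 0.121), a response difference of -1.24 ± 0.22. HEMA3 (AT2G31250), a glutamyl-tRNA reductase at the start of tetrapyrrole synthesis, averaged 2.22 at low and 3.03 at sufficient nitrate in SG063, just above the floor, a response difference of -0.78 ± 0.11.

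In roots GSTU15 (AT1G59670) averaged 4.35 ± 0.31 at low and 2.35 at sufficient nitrate in SG063 against 2.36 and 2.21 in the others, a response difference of 1.86 ± 0.12 (adjusted p = 8.44e-09). In shoots at low nitrate GSTU15 read 2.79 to 5.87 in SG063, 5.14 to 5.22 in NG064 and 4.09 to 4.98 in NG087, and the response difference there was 0.88 ± 0.46 (adjusted p = 0.938). NDB4 (AT2G20800), an external NAD(P)H dehydrogenase of mitochondria, rose in the others from 2.11 to 6.29 at low nitrate, while SG063 averaged 3.02 ± 0.37 and 2.11, a response difference of -3.27 ± 0.44. UGT76D1 (AT2G26480) averaged 8.34 ± 0.45 and 4.72 ± 0.27 in SG063 against 7.47 and 6.32 in the others, a response difference of 2.48 ± 0.40. BGLU42 fell at sufficient nitrate in SG063, from 7.05 ± 0.27 to 5.36 ± 0.73, a response difference of 1.90 ± 0.34, while the others' mean response was -0.21 (adjusted p = 0.314). CYP71B37 averaged 4.32 ± 0.30 at low and 6.52 ± 0.71 at sufficient nitrate, so that SG063 lay 4.90 below the others at low nitrate and 2.88 below at sufficient nitrate. AT4G17470 averaged 2.11 at low and 4.04 ± 0.47 at sufficient nitrate in SG063 roots and stayed at the floor in the other lines (-1.93 ± 0.13).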

How the data were processed

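Total RNA of shoots and roots was hybridised to Affymetrix arrays, 1 array per pooled replicate. The deposited values are on the log2 scale. Affy, GCRMA and limma appear, without versions, in the submitters' processing notes. The set of arrays normalised jointly was not given in the sources used here. The values were used as deposited. Per organ, limma 3.58.1 in R 4.3.3 was fitted to 30 arrays with line and nitrate supply as additive terms, and the contrast was SG063 minus the equal-weight mean of El-0, KB006, NG064 and NG087. P-values were adjusted by Benjamini-Hochberg over all 22746 probe sets, and 0.05 was the threshold. SG063 was also tested against each line. Nitrate responses came from a model of line by nitrate, and organ differences from a joint fit of 60 arrays. The fit was tested on simulated data. Fei-0 (12 arrays) was not used.

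Of the probe sets, 13513 (59.4%) were paired with 1 gene, 503 with several and 8730 with none, and names come from those with 1. Named genes are, per organ, the largest differences without overlap, over all and over well-expressed probe sets, those called in both organs, the largest calls of each list, and the smallest p-values of the response and organ tests. Genes with a symbol that were distinct from each line, genes called with opposite signs and examples of shared levels were added after their values were seen. Members and lists were chosen with earlier results of these data known. The number of arrays limits the precision, and p-values measure the spread between pooled replicates. In the additive main fits that spread also holds departures of single lines from the shared nitrate term. The labels state 6 seeds in a dish, too few for pools of 30 plants taken from 3 plates. Same-numbered replicates deviated together in part. Their correlations ran from -0.354 to 0.529 in shoots and from -0.251 to 0.423 in roots over 135 pairs of arrays each. Among the 3 arrays of another group, the same-numbered array correlated best in 70 of 135 shoot cases and in 47 of 135 root cases. Where SG063 was 1 of the groups it was best in 28 of 51 shoot cases. The main fits did not take the numbers as pairs and hold no term for them. Fits with a replicate block are given in the last section. Alternatives were models, scalings, filters, single nitrate supplies, and leaving out each line and each array.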

Additional observations from a re-analysis of the deposited data

Results flagged for a closer look

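These results are listed because the test of the difference itself passed in limma, between SG063 and the other lines in their nitrate response, or between the organs in the SG063 difference. All values are log2.

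In shoots the SG063 response (low minus sufficient nitrate) minus that of the other lines was 1.55 at CuAO1, 1.43 at UGT73D1, 1.38 at AT5G41660, 1.21 at AT1G47920 and 0.91 at AT3G53550. It was -1.26 at LUP5, -1.24 at BPEp, -0.78 at HEMA3, -0.70 at THO7 and -0.16 at AT1G16705. In roots it was 2.48 at UGT76D1, 1.90 at BGLU42, 1.86 at GSTU15 and 1.36 at YLS5. It was -3.27 at NDB4, -2.02 at CYP71B37, -1.93 at cox2, -1.93 at AT4G17470, -1.47 at AT5G28230, -1.21 at XTH33, -1.11 at AT3G29430 and -0.48 at PMEAMT. SG063 itself read 2.11 on all its arrays at AT1G16705 and AT5G28230, and 2.11 to 2.18 in shoots at AT3G53550. The differences at these genes therefore came from the other lines.

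The SG063 difference in shoots minus that in roots was negative at AT1G55430 (-3.13), AT1G70080 (-2.70), EXPA8 (-2.63), AT1G55440 (-2.51), AT1G58410 (-2.43), psbM (-1.58), CYP71B34 (-1.48) and EXLA1 (-1.45). It was also negative at NAI1 (-1.33), JAL33 (-1.22), NAI2 (-1.11), PYK10 (-0.96), XTH32 (-0.92), GSTU27 (-0.89), AT2G31110 (-0.81), XTH16 (-0.79), ndhI (-0.61) and TBL25 (-0.50). It was positive at QQS (2.33), XTH29 (1.41), rps4 (1.22), psbN (1.18), PGRL1B (1.08), UGT88A1 (1.01), atpF (0.92), ndhC (0.74), psbZ (0.73) and clpP (0.64). The calls of THO7, UGT73D1, LUP5, PMEAMT, YLS5, XTH33, EXLA1, XTH32, XTH29, XTH16 and atpF were each lost on leaving out at least 1 array. Of 30 such fits per response, 23 lost the call at PMEAMT, 19 at XTH33 and 16 at YLS5. The response call was lost in 6 at LUP5, 5 at UGT73D1 and 4 at THO7. Of 60 such fits per organ difference, 46 lost the call at EXLA1 and 41 at XTH32. That call was lost in 14 at XTH29, 7 at XTH16 and 3 at atpF.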

How the results depend on the processing

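With 1 nitrate supply alone, and so 15 arrays per organ, shoots had 1461 calls at low nitrate (938 well-expressed) and 683 at sufficient (403), and roots 3199 (2344) and 2960 (2162). A filter on a mean of 5 or more left 10 response calls in shoots, 45 in roots and 914 organ differences. Leaving out 1 array gave 1823 to 2612 calls in shoots (1223 to 1872 well-expressed, 302 to 369 distinct from each line, 60 to 94 responses) and 4467 to 5338 in roots (3318 to 4044, 735 to 828, 83 to 183). Organ differences then ranged from 1245 to 1689. The 83 came without SG063 root low replicate 2. Calls lost on leaving out at least 1 array included DFR, AT4G14090, GSTU27 and PGRL1B in shoots. In roots they included UGT88A1, JAL33, PSBW, SBPASE, nad9 and cox2. Leaving out a line gave from 1881 calls in shoots (without NG087) to 3074 (without El-0). The model of line by nitrate gave 2484 calls in shoots and 5930 in roots, with 403 and 1034 probe sets distinct from each line. Signs turned at UGT73D1 in shoots (-0.00676) and cox2 in roots (0.0607) at sufficient nitrate alone, and at psbN in shoots (-0.0225) and QQS in roots (1.51) without El-0. With the replicate block, calls numbered 2291 in shoots and 5181 in roots, responses 71 and 166, and organ differences 1488. Under it the calls of EXLB1, AtVEX1 and UGT74B1 in shoots, RALFL22 and GSTU20 in roots, the root responses of PMEAMT and XTH33 and the organ difference of EXLA1 were lost, at adjusted p from 0.0511 to 0.0576. Centring arrays moved the share of higher shoot calls from 51% to 45.8%. limma pools the spread over probe sets and lines, and at the floor that spread is not measured. The cause of these shifts was not tested.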
